A study of Mus musculus with 4 samples.

Results

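Wild-type (WT) mouse keratinocytes that received interleukin-17A (IL-17A) were compared with untreated WT keratinocytes, across all genes and across gene groups. The comparison was chosen by sample label and rests on 2 of the 4 RNA-seq libraries of the series, 1 library on each side. Both libraries come from primary epidermal keratinocytes of neonatal C57BL/6 mice with a wild-type genotype, isolated with dispase and trypsin and grown in 154CF medium with the HKGS supplement kit for 48 h. The treated cells had IL-17A at 100 ng/mL for 8 h. The other libraries are IL-17A-treated keratinocytes of Il17rc knockout (KO) and Il17rd KO mice of the same strain, 1 library each, and their values are given here only as levels beside the WT values. The sources used here do not say how many animals or dishes went into a library.

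IL-17A is a cytokine of T cells and innate lymphocytes that acts on epithelial cells through a receptor of IL-17RA and IL-17RC chains and the adaptor Act1. In the skin it is known for its role in psoriasis and in defence against fungi and bacteria, where keratinocytes answer it with neutrophil-attracting chemokines, antimicrobial proteins and growth. Keratinocytes in culture sit on a scale between dividing basal cells, which hold on to the basement membrane, and differentiating suprabasal cells, which build keratin 1 and 10, desmosomes and the cornified barrier.

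Each gene's level is given as its read count, or as CPM, the count scaled to a common library size. Summed over the 13102 deposited genes, the untreated library held 19904695 counts and the IL-17A library 19890946. A gene was called higher or lower in the IL-17A library where its CPM ratio was at least 2-fold and the exact 95% counting interval of that ratio excluded 1, and 12934 genes that averaged 1 CPM or more over the 4 libraries were tested this way. The numbers in parentheses after a fold are that interval. This interval holds counting error alone, and it counts reads, which are not independent molecules where no molecular identifiers were used. With 1 library per group there was no replicate spread to compare a difference with and no p-value was computed, so every difference below is one between these libraries.

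Sex-linked genes also set the WT libraries apart. The Y-linked Ddx3y had 654 counts in the untreated and 233 in the IL-17A library, and Kdm5d had 397 and 104. The X-inactivation RNA Xist had 2420 and 4750. All 4 Y-linked genes were called lower, by 2.87- to 3.90-fold, and the part of this imbalance in the other differences was not tested. The receptor genes Il17ra, Il17rd and Il17rc differed less than the 4 Y-linked genes. Il17ra had 548 and 462 counts and Il17rd 252 and 265, whereas Il17rc, the gene of the second IL-17A-binding chain, had 2729 and 1152 and was 2.42-fold lower (2.26 to 2.59). Traf3ip2, the gene of Act1, had 920 and 1216.

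The cultures were of keratinocyte identity by their markers. All 15 keratinocyte markers were detected, and Krt5, Krt17 and Krt14, the keratins of basal and activated cells, had the highest length-scaled levels of all genes. Krt5 stood at 9282 FPKM (counts scaled to library size and transcript length) in the untreated and 7020 FPKM in the IL-17A library, and Krt14 at 6744 and 5670 FPKM. Neither gene was called. Of the 15 markers, Epcam was called higher, and Perp and Col17a1 were called lower. The 15 summed to 61274 CPM in the untreated and 45829 CPM in the IL-17A library. Markers of other cells were present as well, and their lists differed in direction. Of the 11 fibroblast markers tested, 10 were called lower and 1 higher, and their summed level went from 86.9 to 15.8 CPM. All 12 melanocyte markers had ratios below 1 and 3 were called lower, with sums of 2581 and 1699 CPM. The 7 immune cell markers tested, 4 of them called lower, summed to 144 and 90.3 CPM, and the 6 endothelial and nerve markers tested, 1 called higher and 3 lower, to 124 and 79.9 CPM. Of 12 hair follicle markers, 2 were called higher and 7 lower, but their summed level went from 675 to 943 CPM. Lrig1 alone went from 94.4 to 288 CPM, while 10 of the 12 had ratios below 1. Of 5 sebaceous and Merkel cell markers, 2 were called higher, Krt8 and Krt18, and 1 lower, with sums of 633 and 988 CPM. The part of these cells in the other differences was not tested. None of the markers tested was at 0 in either library, but all deposited genes exceed 1 CPM in at least 2 of the 4 libraries. The deposited genes held 11 of 16 listed fibroblast, 7 of 21 immune cell and 7 of 13 endothelial and nerve markers. They also held 12 of 21 hair follicle, 7 of 15 sebaceous and Merkel cell and all 12 melanocyte markers. In bulk RNA, fewer cells of a type and less RNA per cell cannot be told apart.

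By the size rule 1160 genes (8.97% of those tested) were higher and 1384 genes (10.7%) lower in the IL-17A library, 19.7% in all. At 4-fold the counts were 249 (1.93%) and 434 (3.36%), and at 16-fold 38 and 71. The middle 50% of all genes lay between log2 ratios of -0.43 and 0.42, with a median of 0.00. Genes called higher took 3.11% of all counts in the untreated and 9.80% in the IL-17A library, while genes called lower went from 13.0% to 4.43%. Calls were most frequent among genes under 5 CPM, of which 15.1% were called higher and 18.5% lower. The shares were 5.46% and 7.78% between 100 and 500 CPM, and 6.69% and 11.2% from 500 CPM. Every list count that follows is to be read against the 8.97% and 10.7% over all genes.

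Among properly named genes called higher, the 12 with the largest gains in CPM included several of the cytoskeleton and of adhesion. Actb, which encodes beta-actin, went from 42414 to 99848 counts, a 2.31-fold difference (2.28 to 2.33). Anxa1, the gene of a phospholipid-binding protein that limits inflammation, was 2.38-fold higher (2.35 to 2.41). The set also held Col18a1, Thbs1, Actn1, Cd44, Lama3, Itga3, Hsp90aa1, Emp1, Aplp2 and Inhba, at 2.10- to 5.55-fold. On the other side stood Krt1, Psap, which encodes the precursor of lysosomal sphingolipid activators (93558 to 20100 counts, 4.75-fold lower, 4.68 to 4.82), and genes of differentiated epidermis such as Sbsn, Dmkn, Asprv1 and Lgals7. Among the genes furthest from a ratio of 1 were Mal, which encodes a membrane protein of apical sorting (252 to 4761 counts, 18.5-fold higher, 16.3 to 21.1), and Tnnt2, known as cardiac troponin T (70 to 1387, 19.4-fold higher, 15.3 to 25.0). Mal had 346 and 364 counts in the IL-17A-treated Il17rc KO and Il17rd KO libraries and Tnnt2 169 and 202, so the treated WT library stood alone in both genes. That did not hold for every gene named here. Psap had 16797 and 25621 counts in the treated Il17rc KO and Il17rd KO libraries. Hsp90aa1 had 31054 and 20035 there, against 9601 in untreated and 27958 in treated WT.

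**Figure D1:**
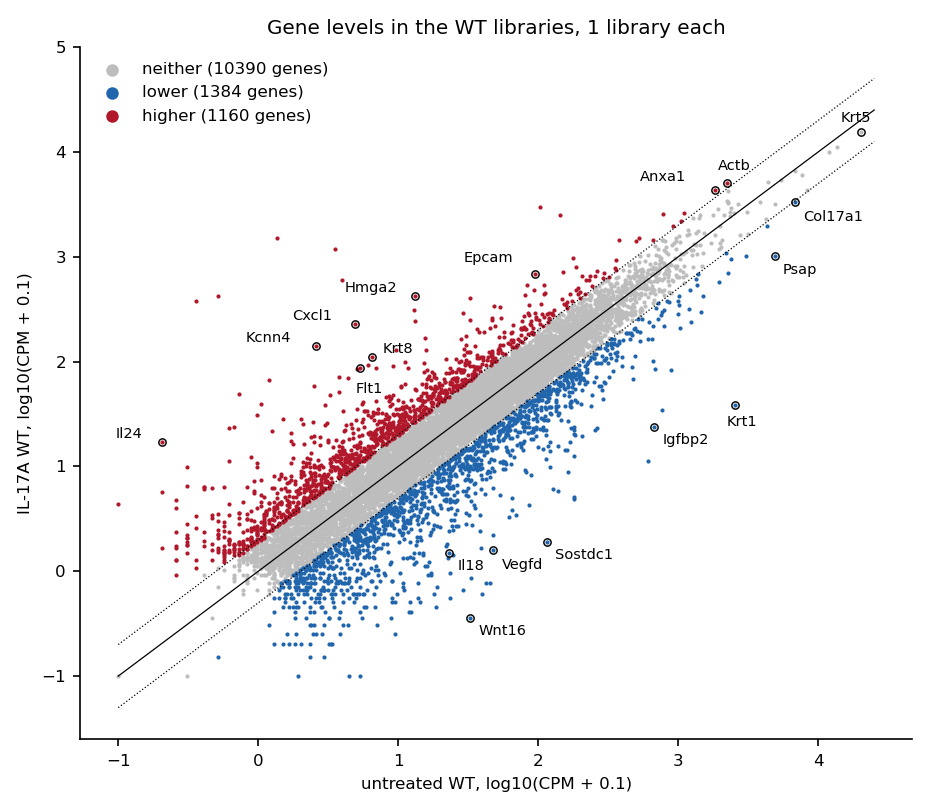
Levels of the 12934 tested genes in the untreated WT (x axis) and IL-17A WT library (y axis), each as log10(CPM + 0.1); each point is a gene, the solid line is equality and the dotted lines mark 2-fold. Red points are the 1160 genes called higher and blue points the 1384 called lower; Actb and Anxa1 lie just outside the upper line at high levels, while Vegfd, Il18 and Wnt16 lie far below the lower one.

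Chemokines with an ELR motif, which recruit neutrophils through the receptor CXCR2, had the highest median log2 ratio of the 66 gene lists, 5.53 against 0.00 over all genes. All 3 that were measured were called higher. Cxcl2 went from 22 counts to 426, 19.0-fold higher (12.4 to 30.6), with 73 and 82 counts in the treated Il17rc KO and Il17rd KO libraries. In the same order of libraries, untreated WT, treated WT, treated Il17rc KO and treated Il17rd KO, Cxcl1 had 92, 4443, 286 and 468 counts and Cxcl5 had 12, 951, 5 and 70. The IL-17A WT library was the highest of the 4 in all 3 genes. The promoters of Cxcl1 and Cxcl2 are shown because both hold the same match to an NF-kB motif close to the start. They come from the RefSeq promoter windows for GRCm38.p6, which span 250 bases before to 50 after the start, and the 150 bases up to the start are printed 5′ to 3′ on the gene's strand (chr5:90891095-90891244 and chr5:90903749-90903898, both plus strand). Capitals mark the NF-kB match, which was searched with any base as the fifth letter.
Cxcl1: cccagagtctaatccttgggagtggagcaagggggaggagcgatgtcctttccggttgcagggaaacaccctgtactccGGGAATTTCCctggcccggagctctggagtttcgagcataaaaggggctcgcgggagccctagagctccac
Cxcl2: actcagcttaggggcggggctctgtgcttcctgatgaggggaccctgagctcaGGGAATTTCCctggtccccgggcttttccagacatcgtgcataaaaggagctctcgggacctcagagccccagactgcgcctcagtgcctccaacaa

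The match lies 71 to 62 bases before the start in Cxcl1 and 97 to 88 bases before it in Cxcl2, and it is the same 10 letters in both. Over both strands, 35 of the 9439 tested genes with a window held the motif (0.371%), among them 5 of the 744 called higher (0.672%) and 3 of the 971 called lower (0.309%). A window was on hand for both Cxcl1 and Cxcl2 but not for every tested gene. A match describes letters and is not evidence of binding.

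The chemokine and growth factor genes beside Cxcl1 on chromosome 5 mostly shared the direction. In the 90759360 to 92348889 interval (GRCm38, Cxcl5 to Cxcl10, with the ends chosen after the values were seen), 7 of 19 tested genes were called higher and 1 lower. The genes called higher were Cxcl5, Cxcl1, Cxcl2, Mthfd2l, Ereg, Areg and Cxcl10, and the gene called lower was Epgn, which lies between them. The remaining chemokines differed less, and of 9 tested 3 were called higher and 2 lower. Cxcl10, which attracts T cells, went from 37 to 154 counts, 4.08-fold higher (2.83 to 6.01). Cxcl14, an epidermal chemokine made by resting keratinocytes, went the other way, from 1767 to 553 counts, 3.26-fold lower (2.96 to 3.60). Cxcl16, a membrane-bound chemokine, had 3619 and 6488 counts and was not called. Ccl20, the ligand of CCR6 on Th17 cells, had 91 and 152 counts, a ratio of 1.64 (1.25 to 2.15).

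Colony-stimulating factors and interleukins diverged. Of 16 tested, 8 were called higher and 5 lower, and the median log2 ratio was 0.86. Il23a, which encodes the p19 chain of IL-23, the cytokine that sustains IL-17-producing cells, had 17 counts in the untreated and 209 in the IL-17A library, 12-fold higher (7.34 to 21.1). It had 17 counts in the treated Il17rc KO library, the same count as in untreated WT, and 32 in the treated Il17rd KO library. Csf1, the macrophage growth factor, went from 1227 to 3672 counts, and Il34, a second ligand of the same receptor, from 47 to 155. Lif, an IL-6 family cytokine, went from 287 to 672.

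The interleukins that were lower belong to the IL-1 family. Il18, which is stored as a precursor in keratinocytes, went from 441 to 27 counts, 16.7-fold lower (11.3 to 25.6), with 245 and 178 in the treated KO libraries. Il33, a nuclear alarmin, went from 214 to 49 counts, 4.46-fold lower (3.26 to 6.21). Il1f5, Il1f8 and Il1f9, the genes of IL-36 family members, were also called lower, whereas Il1f6 went from 38 to 171 counts. The IL-36 genes were therefore split, and Il1f5, which encodes the receptor antagonist, had 3821 and 1309 counts.

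Of 30 receptors for interleukins and interferons, 8 were lower and 2 higher, against 10.7% and 8.97% of all genes. Il17rb, the receptor chain for IL-25, went from 72 to 3 counts, a ratio with a wide interval of 24.5-fold (8.06 to 122). Il6ra and Il6st, the chains of the IL-6 receptor, were 4.31-fold (3.88 to 4.81) and 2.77-fold lower (2.66 to 2.88). Il20rb and Il22ra1, the genes of receptor chains for IL-20 family cytokines, were lower as well, with 196 and 44 counts for Il20rb. On the other side, Il18r1, the IL-18 receptor, went from 204 to 589 counts. Among TNF family genes, 6 of 22 were higher and 4 lower. Tnf itself went from 319 to 1120 counts, 3.44-fold higher (3.03 to 3.91), with 230 and 382 in the treated KO libraries. Tnfrsf11b, the gene of the decoy receptor osteoprotegerin, was 12.4-fold lower (10.7 to 14.4), from 2338 to 193 counts.

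Genes of innate sensing showed no common direction, with 5 of 22 Toll-like receptor and inflammasome genes higher and 5 lower. Gsdmc, a pore-forming gasdermin, went from 206 to 12 counts, 17.5-fold lower (9.82 to 34.5), and Gsdma, the gasdermin of differentiated skin, from 2545 to 730, while the gasdermin gene Dfna5 went from 17 to 77. Of 29 apoptosis regulators, a separate list, 4 were higher and 2 lower. Mlkl and Ripk3, which act together in necroptosis, were 5.52-fold (3.95 to 7.89) and 3.17-fold higher (2.78 to 3.62). The caspase-8 inhibitor gene Cflar was 2.97-fold higher (2.73 to 3.24). C3, the central complement component, was the only complement gene called higher of 14 tested, from 445 to 1706 counts, 3.76-fold (3.38 to 4.18). It had 130 counts in the treated Il17rc KO and 765 in the treated Il17rd KO library. The 6 complement genes called lower included C1qa, C1qb and C1qc, which macrophages express, and these moved with the immune cell markers, whose part in the result was not tested.

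Interferon-stimulated genes were lower in 9 and higher in 1 of 30. Ifit1 had 40 and 5 counts and Ifi27 579 and 145, 4.08-fold lower (3.39 to 4.92). The exception was Ifitm3, a membrane protein that restricts virus entry, which went from 620 to 4908 counts, 7.75-fold higher (7.13 to 8.44). Of 22 antigen presentation genes, none was higher and 4 were lower. The abundant class I gene H2-D1 had 3675 and 3234 counts. H2-Ab1, a class II gene of professional antigen-presenting cells, had 43 and 6 counts, beside the lower immune cell markers.

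Genes of prostaglandin and leukotriene metabolism differed in both directions. Ptgs2, the inducible cyclooxygenase, went from 3688 to 8630 counts, 2.29-fold higher (2.21 to 2.38), while Hpgd, the enzyme that inactivates prostaglandins, went from 3111 to 526, 6.04-fold lower (5.50 to 6.63). Slco2a1, the transporter that takes prostaglandins up for removal, was 2.58-fold higher (2.51 to 2.66), from 6939 to 18300 counts. Pla2g2f, a secreted phospholipase of the epidermis, went from 3448 to 98, 35.9-fold lower (29.4 to 44.4), and Pla2g2e was 3.53-fold lower (1.77 to 7.65). The lipoxygenases of the skin barrier Alox12b and Aloxe3 were both lower, Alox12b by 3.21-fold (2.78 to 3.72). In all, 4 of 27 genes were higher and 8 lower, and the median log2 ratio was -0.05.

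**Figure D2:**
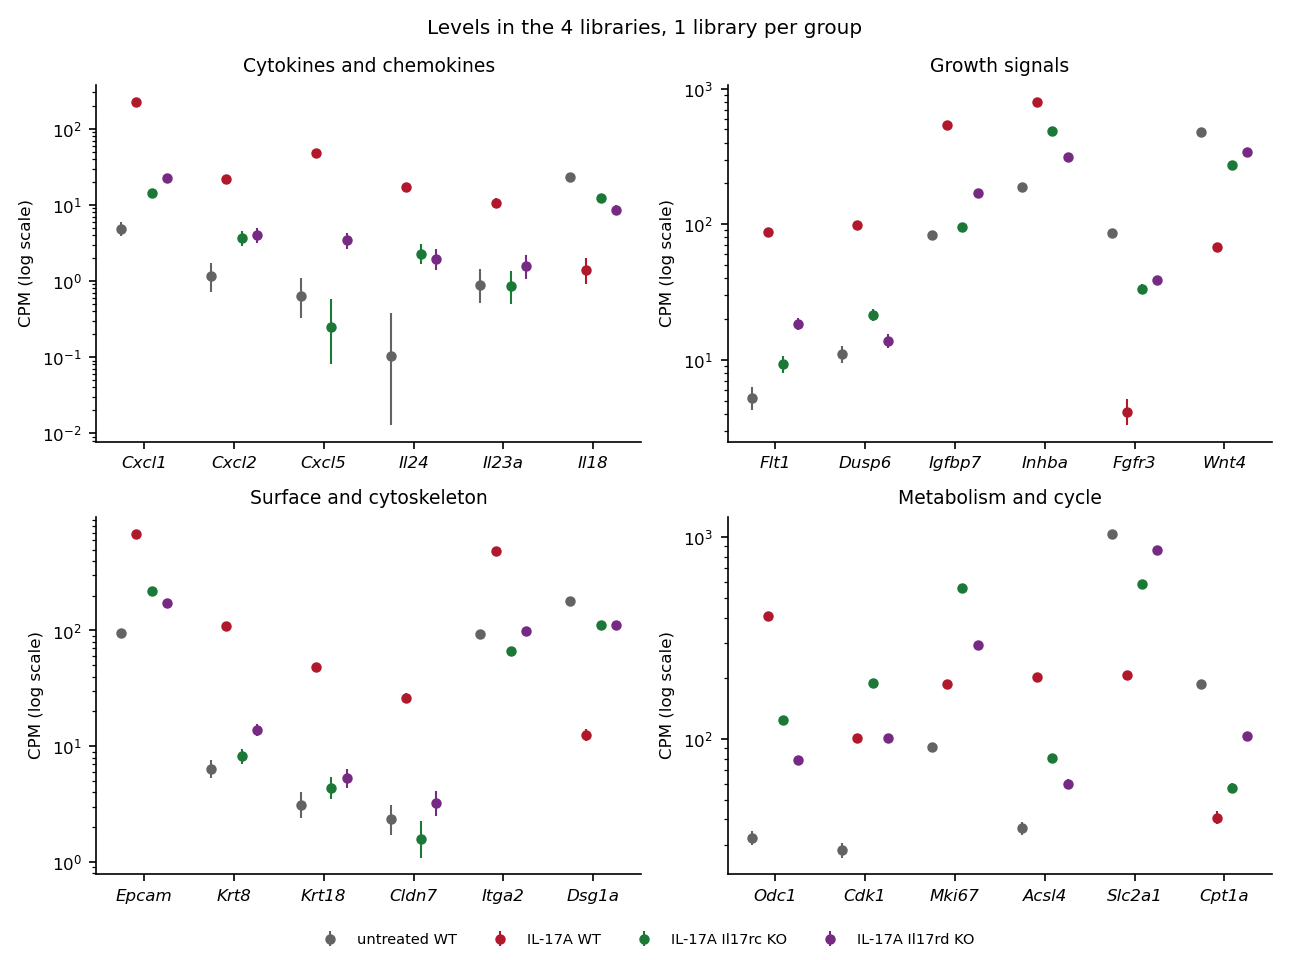
Levels in CPM on log axes in the 4 libraries (1 library per group) for 24 genes in 4 sets; each point is a library and bars are exact 95% Poisson counting intervals. The IL-17A WT point is the highest of the 4 for Cxcl1, Il23a, Flt1, Igfbp7, Epcam, Krt8 and Odc1, and the lowest for Il18, Fgfr3, Wnt4, Dsg1a and Slc2a1, whereas Cdk1 and Mki67 peak in the treated Il17rc KO library.

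Growth signalling genes were next examined by pathway. Genes that ERK signalling is known to induce as its own brakes, with the PEA3 factors, were higher in 11 and lower in 1 of 20, and the median log2 ratio was 1.27. Dusp6, the phosphatase that acts on ERK, went from 211 to 1942 counts, 9.02-fold higher (7.82 to 10.4), against 430 and 285 in the treated KO libraries. Spred1, an inhibitor of the RAS pathway, went from 565 to 2561 counts, and Spry4 from 39 to 159. Factors of the AP-1, EGR and MYC families did not share this direction, with 3 of 31 higher and 10 lower. Fosl1, the gene of FRA1, was 5.15-fold higher (4.17 to 6.41), while Egr3, Egr1 and Fosl2 were lower, Egr1 from 1559 to 467 counts and Fosl2 from 16553 to 7214.

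Of 14 genes of the ERBB receptor system, 5 were higher and 3 lower. Hbegf went from 155 to 893 counts, 5.64-fold higher (4.75 to 6.74). Areg and Ereg were 4.73-fold (2.83 to 8.36) and 3.45-fold higher (2.59 to 4.67), and Nrg1, the ligand of ERBB3 and ERBB4, went from 597 to 1841 counts. Epgn, a further EGF receptor ligand, went the other way, from 1554 to 742 counts, 2.14-fold lower (1.96 to 2.34). Erbb2 and Erbb3 were 2.62-fold (2.45 to 2.80) and 2.67-fold lower (2.50 to 2.85). Egfr itself had 2954 and 3341 counts. Lrig1, an inhibitor of ERBB receptors and a marker of follicle stem cells, went from 1809 to 5633, so the group held ligands, receptors and an inhibitor in different directions.

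FGF receptors were lower. Fgfr3 went from 1649 to 81 counts, 20.8-fold lower (16.6 to 26.3), with 671 and 796 in the treated KO libraries. Fgfr2, whose epithelial form binds FGF7 and FGF10, went from 7588 to 1767 counts, 4.38-fold lower (4.16 to 4.62). In the VEGF system the direction differed between members. Flt1, a VEGF receptor that also acts as a decoy in soluble form (chromosome 5, 147561604 to 147726011, minus strand, GRCm38), went from 100 to 1714 counts, 16.8-fold higher (13.7 to 20.8), and the co-receptor gene Nrp2 from 1858 to 5198. Vegfd, a ligand of lymphatic growth, went from 912 to 29, 32.1-fold lower (22.2 to 48.2). The endothelial markers on the marker list were divided. Kdr, another VEGF receptor, was called higher, from 86 to 183 counts, 2.08-fold (1.60 to 2.73), Pecam1 had 113 and 161 and was not called, and Vwf went from 96 to 15. Their part in the difference of Flt1 was not tested. In all, 4 of 28 genes of these systems were higher and 11 lower.

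Insulin-like growth factor (IGF) binding proteins differed in both directions. Igfbp7 went from 1601 to 10477 counts, 6.41-fold higher (6.08 to 6.76), and Igfbp3 from 2114 to 8685, 4.02-fold higher (3.84 to 4.22). Igfbp2 had 12965 and 460 counts, and stood at 1821 and 3460 in the treated KO libraries. These proteins bind IGFs outside the cell and control how much reaches the receptor.

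TGF-beta and BMP genes differed in both directions, and the group of 53 held 7 genes higher and 12 lower. Inhba, the subunit of activin A, went from 3590 to 15679 counts, 4.28-fold higher (4.13 to 4.44), and its binding inhibitor gene Fst from 4230 to 11816, 2.74-fold higher (2.64 to 2.83). Tgfbi, a matrix gene that TGF-beta induces, went from 4570 to 735 counts, 6.35-fold lower (5.87 to 6.87). Among BMP genes, Bmp2 was 8.72-fold lower (5.70 to 13.9) and its direct target Id1 went from 172 to 14 counts, 12.5-fold lower (7.27 to 23.4). All 4 inhibitor-of-DNA-binding genes were lower, Id3 from 853 to 212, and so was the BMP antagonist gene Grem1, from 205 to 49.

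Wnt pathway genes were lower in 15 and higher in 4 of 43, against 10.7% and 8.97% of all genes. Wnt4, a ligand of the basal and suprabasal epidermis, went from 9183 to 1320 counts, 7.10-fold lower (6.70 to 7.53), with 5468 and 6946 in the treated KO libraries. Apcdd1, a membrane inhibitor of Wnt signalling, was 7.77-fold lower (6.41 to 9.49). Wnt7a, a ligand of keratinocytes, was 2.53-fold higher (2.31 to 2.76), with 676 counts in the untreated and 1743 in the IL-17A library. Ctnnb1, the gene of beta-catenin, had 16186 and 15114 counts. The Notch pathway, which drives keratinocytes out of the basal layer, had 8 of 23 genes lower and none higher. Notch1 went from 14797 to 5859 counts, 2.58-fold lower (2.50 to 2.66), and Notch3 was 4.62-fold lower (4.10 to 5.22). The ligand gene Jag1 had 8364 and 8845.

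Contact signals showed a similar weight on the lower side. Of 38 semaphorins, ephrins and receptors, 15 were lower and 5 higher, among them Ephb6 with 3451 and 398 counts and Sema3d with 328 and 17. Epha2, the receptor most active in epithelial cells, went from 1493 to 4093, 2.69-fold higher (2.53 to 2.85). YAP and TEAD targets had a median log2 ratio of 0.04, with 5 of 26 called higher and 3 lower. Cyr61, the best known of them, went from 2872 to 13861 counts, 4.73-fold higher (4.54 to 4.92), and had 2176 and 3054 in the treated KO libraries. F3, the gene of tissue factor, the starter of coagulation, was 3.21-fold higher (3.09 to 3.33). The genes called lower were Ptpn14, which holds YAP in check, from 8813 to 3677 counts, Crim1 and Tead3. In retinoid metabolism, Aldh1a3, which makes retinoic acid, went from 130 to 1692 counts, 12.7-fold higher (10.7 to 15.4). Of 19 retinoid genes tested the 8 others that were called were lower, among them the receptors Rxra and Rarg and the carrier gene Crabp1, which went from 760 to 145.

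**Figure D3:**
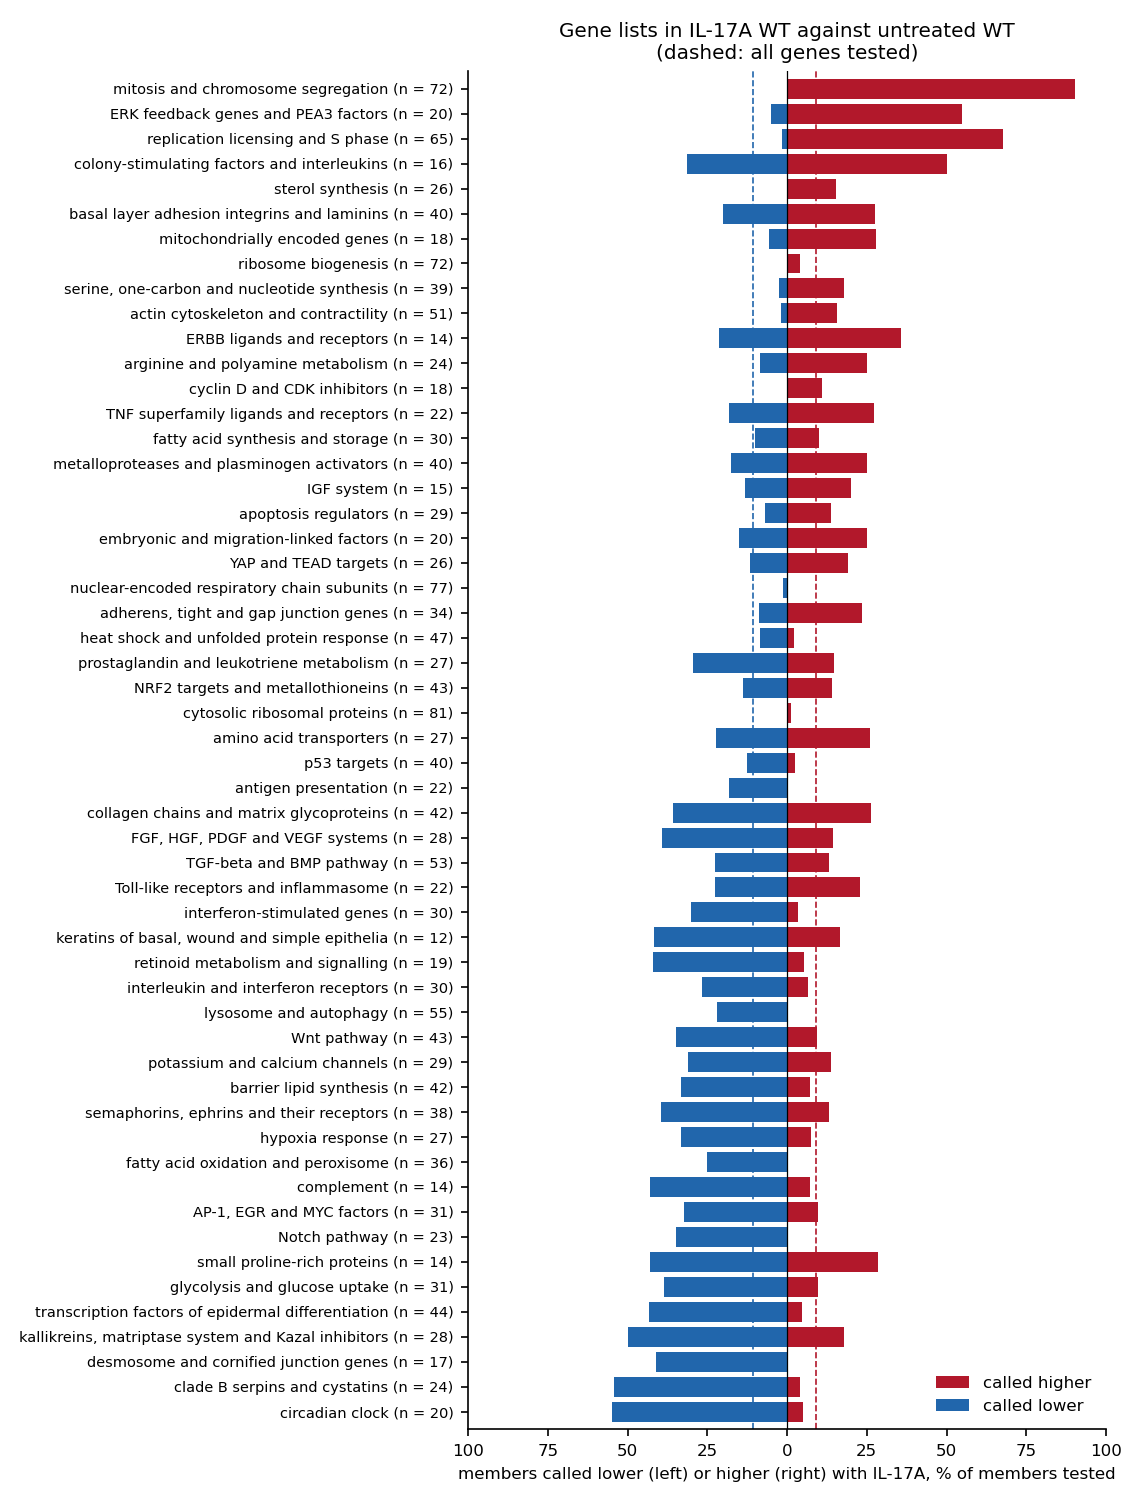
For each list with 10 or more tested members, markers of cell types aside, the share of tested members called higher (red, to the right) or lower (blue, to the left) in the IL-17A WT library; n is the number of members tested, lists are ordered by median log2 ratio and dashed lines mark the shares over all genes, 8.97% and 10.7%. The mitosis, replication and ERK feedback lists lie at the top, and the clock, serpin and desmosome lists at the bottom.

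Some genes known from simple epithelia were higher in the IL-17A library and others were not. Krt8 and Krt18, the keratin pair of single-layered epithelia, went from 123 to 2146 counts (17.1-fold, 14.2 to 20.7) and from 60 to 947 counts (15.5-fold, 11.9 to 20.4). In the treated KO libraries Krt8 had 164 and 283 counts and Krt18 88 and 109. Epcam, an adhesion molecule of simple epithelia and carcinomas, went from 1812 to 13348 counts, 7.22-fold higher (6.87 to 7.58), with 4439 and 3521 in the treated KO libraries. It is also on the list of keratinocyte markers used here. Krt8 and Krt18 also mark Merkel cells, and the other Merkel cell markers on the list were not among the tested genes. Cldn7, a tight junction claudin of simple epithelia, went from 45 to 513 counts, 11.2-fold higher (8.23 to 15.5). Krt7, another keratin of simple epithelia, had 2336 and 3445 counts and was not called, and Tjp3, a scaffold gene of tight junctions, was lower, from 55 to 9. These genes were picked from several lists after their values were seen. Of 34 adherens, tight and gap junction genes, 8 were higher and 3 lower. E-cadherin, encoded by Cdh1, had 28840 and 21286 counts.

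Keratins of stratified epidermis were lower or not called. Of 6 suprabasal and hair keratins tested, 5 were lower and none higher, and the median log2 ratio was -2.66. Krt77, a suprabasal keratin, had 170 and 14 counts, 12.4-fold lower (7.19 to 23.2). Among 12 basal, wound and simple keratins, Krt15, a marker of follicle and basal stem cells, went from 497 to 51, 9.95-fold lower (7.45 to 13.5). The wound keratins were not higher. Krt16 went from 58798 to 19880 counts, 3.02-fold lower (2.97 to 3.07), while Krt6a had 130123 and 128984 and Krt17 262471 and 219826.

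Desmosome and cornified junction genes were lower in 7 and higher in none of 17. Apart from Perp, the genes called lower are those of the upper layers. Dsg1a went from 3450 to 246 counts, Dsc1 from 3912 to 383, 10.4-fold lower (9.39 to 11.6), and Cdsn, the gene of corneodesmosin, from 12663 to 1961, 6.59-fold lower (6.29 to 6.92). The cornified envelope plakin genes Ppl and Evpl were lower too. The basal and general desmosomal genes were not called. Dsg3 had 15226 and 12209 counts, Dsg2 1425 and 1467, and Dsp 160544 and 84390, a ratio of 1.94 (1.93 to 1.96), just short of 2-fold.

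Adhesion to the basement membrane held genes of both directions, 11 of 40 higher and 8 lower, and the median log2 ratio was 0.51. Itga2, a collagen receptor chain of migrating keratinocytes, went from 1797 to 9504 counts, 5.18-fold higher (4.93 to 5.45), against 1322 and 2044 in the treated KO libraries. Itga3, a laminin-332 receptor chain, was 2.88-fold higher (2.81 to 2.94). The laminin genes Lamb1 and Lama3 were 4.90-fold (4.68 to 5.14) and 2.16-fold higher (2.13 to 2.20). Collagen IV chains were split, since Col4a1 and Col4a2 were both higher, while Col4a5 and Col4a6 were lower, Col4a6 from 513 to 51. Col17a1, the hemidesmosomal collagen, went from 130305 to 65044 counts, 2.05-fold lower (2.03 to 2.06).

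Genes of collagen chains and matrix glycoproteins were higher in 11 and lower in 15 of 42. The lower ones included the fibroblast collagens, among them Col1a1 (247 to 27 counts) and Col6a2 (230 to 8), which moved with the other fibroblast markers, whose part in the result was not tested. The higher ones included Col18a1, Col5a3, Vcan and Efemp1, with 291 and 1562 counts for Col5a3. Cd44, the gene of the hyaluronan receptor, went from 7189 to 28588 counts, 3.90-fold higher (3.80 to 4.00). Pdpn, the gene of podoplanin, which is raised at wound edges, was 7.06-fold higher (6.59 to 7.58).

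Proteases of tissue remodelling were also mixed, 10 of 40 higher and 7 lower. Plaur, the urokinase receptor, went from 115 to 1834 counts, 15.6-fold higher (12.9 to 19.0), and its ligand gene Plau from 5050 to 14249. Adamts4, an enzyme that cuts aggrecan and versican, went from 96 to 686 counts, and Adamts1 was 4.69-fold lower (4.33 to 5.09). Kallikreins and other serine proteases of the cornified layer leaned lower, 14 of 28, with 5 higher. Klk7, which cuts corneodesmosomes, went from 10165 to 3050 counts, and its inhibitor gene Spink5 from 12473 to 3213. The protease inhibitor genes Slpi and Wfdc2 were higher, Slpi from 223 to 1696, 7.45-fold (6.48 to 8.61). Clade B serpins and cystatins were lower in 13 and higher in 1 of 24.

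The epidermal differentiation complex, the gene cluster of cornified envelope and S100 proteins on chromosome 3, was read along its length from S100a1 to S100a10 (90511034 to 93564643, GRCm38, ends chosen after the values were seen). Of its 70 tested genes, 40 were lower and 8 higher, and the median log2 ratio was -1.52. Lor, the gene of loricrin, the main envelope protein, went from 16984 to 1634 counts, with 6072 and 5354 in the treated KO libraries. Flg, the gene of filaggrin, went from 5000 to 456, and Tchh, the gene of trichohyalin, from 14722 to 671. Ivl, the gene of involucrin, an early envelope protein, had 567 and 552 counts. Ivl was therefore not called, unlike the other envelope genes named here.

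The genes of the complex that were higher lie in separate places. S100a8 and S100a9, which form the antimicrobial calprotectin, went from 75 to 653 counts, 8.53-fold higher, and from 103 to 770, 7.32-fold higher (5.96 to 9.08). Both were higher still in the treated Il17rd KO library, at 2575 and 3470 counts. Of the small proline-rich proteins, Sprr2k went from 17 to 190 counts and Sprr2e from 73 to 236, while Sprr1a went from 28901 to 8209 and Sprr2a3 from 1558 to 173. Sprr2e had 1375 counts in the treated Il17rd KO library. In all, 4 of 14 Sprr genes were higher and 6 lower.

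**Figure D4:**
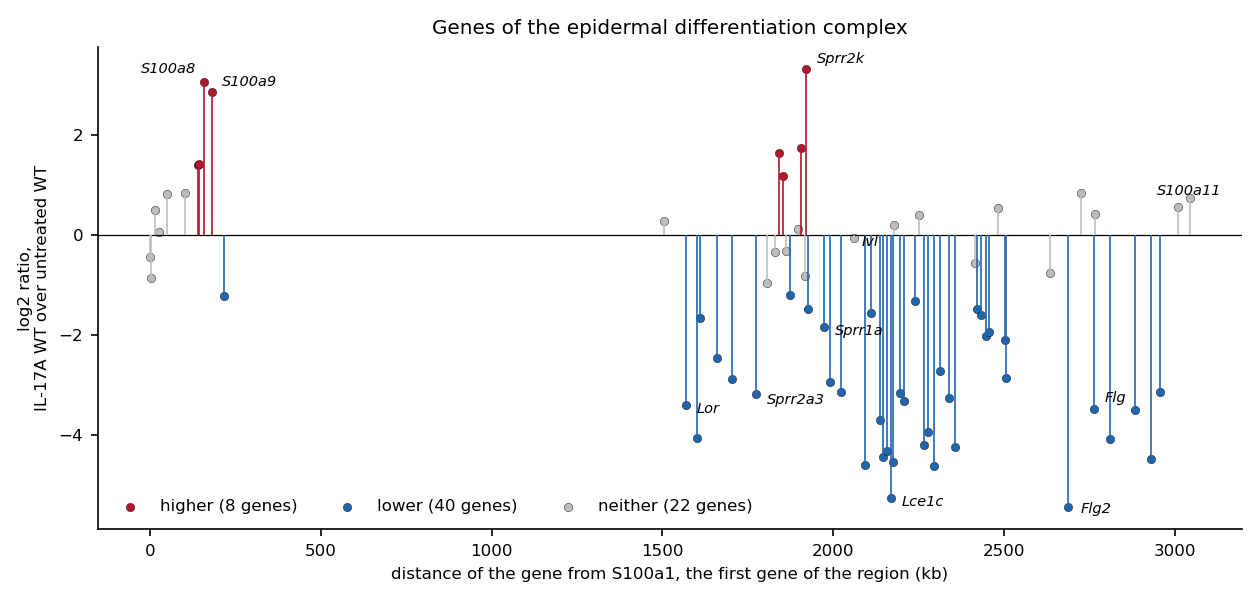
Log2 ratio of IL-17A WT over untreated WT (y axis) for the 70 tested genes of the epidermal differentiation complex against distance from S100a1 in kb (x axis); red marks the 8 genes called higher, blue the 40 called lower and grey the other 22. The genes called higher sit in the S100a8 and Sprr2 stretches, and most genes of the Lce, Flg and Lor stretches lie below 0, with a few uncalled genes above it, such as Lce1h at 0.39 and Lce3f at 0.53.

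Transcription factors of epidermal differentiation were lower in 19 and higher in 2 of 44, and the median log2 ratio was -0.85. Irx4 went from 435 to 24 counts, 18.5-fold lower (12.3 to 29.2), whereas it had 561 and 698 in the treated KO libraries. Cebpa, which takes part in the switch to suprabasal fate, was lower, from 4281 to 1239 counts. Barx2 and Casz1 were also lower. The lineage factor gene Trp63 had 6349 and 5734 counts and was not called. Klf4, a barrier factor, was 2.04-fold lower (1.95 to 2.12). Ovol2 and Foxm1 were the 2 genes called higher.

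Genes of the barrier lipids were more often lower than higher. Of 42 barrier lipid genes, 14 were lower and 3 higher. Sptlc3, a subunit of the enzyme that starts ceramide synthesis, went from 258 to 36 counts, 7.32-fold lower (5.15 to 10.7). Smpd3, a sphingomyelinase, was 5.13-fold lower (4.58 to 5.77), and Sdr9c7, which acts on the bound ceramides, went from 1429 to 322. Cers2, a synthase of ceramides with very long chains that many tissues share, was 3.40-fold higher (3.06 to 3.79), while Cers4 went from 377 to 81.

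Genes of cell division were the lists with the most members called higher. Of 72 mitosis and chromosome segregation genes, 65 were called higher and none lower, and the median log2 ratio was 1.38. Of 65 replication and S phase genes, 44 were called higher and 1 lower, with a median of 1.19. Cdk1, the kinase that starts mitosis, went from 539 to 1989 counts, 3.62-fold higher (3.29 to 3.98). Top2a, which untangles chromosomes, went from 1464 to 4762 counts, and Cdc6, which loads the replicative helicase, went from 93 to 539, 5.68-fold higher (4.55 to 7.15). The gene called lower was E2f2, which went from 342 to 70. Ccnd1, the gene of cyclin D1, was 5.41-fold higher (5.12 to 5.71), from 1546 to 8534, while Ccnd2 had 15565 and 24316. The inhibitor gene Cdkn1a had 20809 and 12590 counts and was not called. The treated WT library was not the highest of the 4 in every division gene, nor in the summed level of either list. The mitosis list summed to 1419 CPM in untreated WT, 3594 in treated WT, 7822 in treated Il17rc KO and 4424 in treated Il17rd KO. For the replication list the sums were 1484, 3235, 4175 and 2778.5 CPM in the same order. Cdk1 had 3817 and 2085 counts in the treated Il17rc KO and Il17rd KO libraries, and Mki67 had 11189 and 5993 there, against 1750 in untreated and 3667 in treated WT. Cdc6 and Ccnd1 were highest in treated WT, with 386 and 276 counts for Cdc6 and 5468 and 3484 for Ccnd1 in the treated KO libraries. Rrm2, a subunit of ribonucleotide reductase, had 1641 counts in untreated and 5482 in treated WT, against 4961 and 3415.

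The promoters of Cdk1 and Cdc6 are shown because division genes are known to share 2 short motifs, the CHR (TTTGAA) of genes of mitosis and the E2F site of genes of S phase, searched here as TTTNNCGC on both strands. Sequences are the 150 bases up to the RefSeq start on the gene's strand in GRCm38.p6, at chr10:69352913-69353062 (minus strand) and chr11:98908001-98908150 (plus strand), with matches in capitals.
Cdk1: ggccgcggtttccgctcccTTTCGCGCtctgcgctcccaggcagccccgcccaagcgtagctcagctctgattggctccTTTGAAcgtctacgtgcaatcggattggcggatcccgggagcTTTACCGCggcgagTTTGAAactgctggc
Cdc6: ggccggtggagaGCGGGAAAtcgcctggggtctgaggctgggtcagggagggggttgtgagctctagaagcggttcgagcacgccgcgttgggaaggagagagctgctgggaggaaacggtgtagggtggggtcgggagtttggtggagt

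Cdk1 held 2 matches to each motif, with a CHR 15 to 10 bases before the start, and Cdc6 held an E2F match on the other strand 138 to 131 bases before it. No match of a motif overlapped a match of another in these stretches. A CHR lay in the windows of 41 of 63 mitosis genes (65.1%) and of 6 of 55 replication genes (10.9%), against 11.7% of all tested genes with a window. An E2F match lay in 22 of the 55 replication genes (40%) and 11 of the 63 mitosis genes (17.5%), against 8.84% of all. Over all calls, 20.4% of genes called higher and 12.4% of genes called lower held a CHR. For AP-1 (TGANTCA) the shares were 6.32% and 8.44%, and for C/EBP (TTGCNNAA) 8.74% and 10.5%, with 5.02% and 7.94% of all genes. These counts describe letters in the windows and the lists were not chosen by them.

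**Figure D5:**
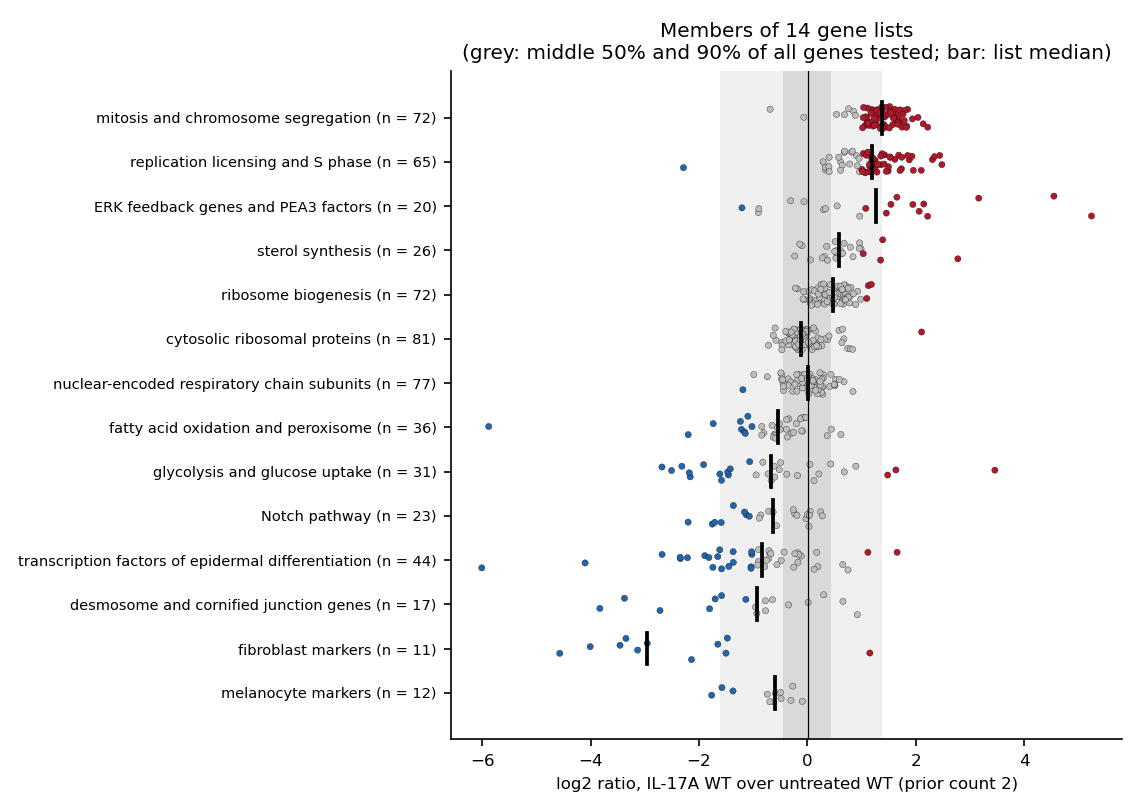
Log2 ratios (x axis, IL-17A WT over untreated WT, prior count of 2) of the members of 14 gene lists; each point is a gene, coloured where called (red higher, blue lower), black bars are list medians, and grey bands hold the middle 50% and 90% of all tested genes. The mitosis points lie almost all to the right of the dark band, the ribosomal protein and respiratory chain points mostly within the bands, and the fibroblast markers to the left, with 1 exception.

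Genes of fatty acid oxidation and of glucose uptake were more often lower than higher. Of 36 fatty acid oxidation and peroxisome genes, 9 were lower and none higher, and the median log2 ratio was -0.53. Cpt1a, which admits fatty acids to mitochondria, went from 3603 to 799 counts, 4.60-fold lower (4.26 to 4.98). Oxct1, an enzyme that uses ketone bodies, had 4552 and 6312.

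Of 31 glycolysis and glucose uptake genes, 12 were lower and 3 higher. The glucose transporter gene Slc2a1 went from 19824 to 4062 counts, 4.98-fold lower (4.82 to 5.15), and the lactate exporter gene Slc16a3 from 6110 to 1392. The pyruvate dehydrogenase kinases Pdk1, Pdk2 and Pdk4, which hold pyruvate out of mitochondria, were all lower. Aldoa and Pkm, enzymes early and late in the pathway, were not called, with 24532 and 15751 counts for Aldoa and 48194 and 50807 for Pkm. Gapdh had 294 and 3319 counts, and it has 78 near-identical copies in the genome, so this value is uncertain. With the 1 copy that is among the deposited genes added, its log2 ratio was 3.44 in place of 3.46. Hypoxia response genes were lower in 9 and higher in 2 of 27, among them Bnip3 with 640 and 52 counts and Adm with 1710 and 160, 10.9-fold lower (9.27 to 12.9). Hif1a had 8037 and 5267 counts.

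The lists of sterol, polyamine and one-carbon synthesis held more genes called higher than lower, against 8.97% higher and 10.7% lower of all genes. Of 26 sterol synthesis genes, 4 were higher and none lower. Of these 26, 23 had ratios above 1, and the median log2 ratio was 0.57. Dhcr7, the last enzyme of cholesterol synthesis, went from 1538 to 4007 counts. Fatty acid synthesis and storage genes, a separate list, were higher in 3 and lower in 3 of 30. Acsl4, which activates arachidonic acid, went from 693 to 3960 counts. Of 24 arginine and polyamine genes, 6 were higher and 2 lower. Odc1, the rate-limiting decarboxylase of polyamine synthesis, went from 621 to 7997 counts, 12.6-fold higher (11.6 to 13.7), with 2485 and 1616 in the treated KO libraries. Arg1, which supplies its substrate, went from 561 to 2239 counts in WT. Serine, one-carbon and nucleotide genes were higher in 7 and lower in 1 of 39, with Mthfd1l at 3.23-fold (2.88 to 3.64).

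Some large gene groups held few calls. Of 77 nuclear-encoded respiratory chain subunits, none was higher and 1 lower, and the median log2 ratio was 0.01, and Atp5b had 24834 and 26189 counts. Of 81 cytosolic ribosomal protein genes, 1 was higher, with a median of -0.12. Ribosome biogenesis genes had a median of 0.47, and 67 of 72 had ratios above 1, but only 3 passed the rule. Ncl, the gene of nucleolin, had 10236 and 19866 counts. Actin cytoskeleton genes held more calls on the higher side, with 8 of 51 higher and 1 lower, against 8.97% and 10.7% of all genes. Their median log2 ratio was 0.41. Fscn1, which bundles actin in migrating cells, had 5590 and 12362 counts. Actg1 had 104581 and 106257.

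Mitochondrially encoded genes were not uniform. mt-Co1 had 84267 and 101500 counts and mt-Cytb 43739 and 64821, neither called. mt-Co2 went from 82 to 1370 and mt-Atp6 from 71 to 1010. mt-Co2 and mt-Atp6 have near-identical nuclear copies, and with the counts of the copies added mt-Atp6 had 2825 and 49815, and mt-Co2 had 2791 and 13253. mt-Atp8, which has no near-identical copy among annotated genes, the only ones searched, but overlaps mt-Atp6, went from 10 to 451 counts. It had 4747 counts in the treated Il17rc KO and 11 in the treated Il17rd KO library. mt-Te, a transfer RNA gene with no such copy, went from 2 to 109, with 425 and 181 in the treated KO libraries. Of all genes tested, 5 had log2 ratios over that of Il24, and they are unprocessed pseudogenes, Gm28439, Gm28438, Gm10222, Gm13340 and Gm13341, named here after their values were seen. Gm28439 had 24 counts in the untreated and 29737 in the IL-17A library.

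Several named genes have counts that are uncertain for such reasons. Etv5, Krt8, Krt16, Dsg1a, Hsp90aa1, Cdc6, Mki67, Odc1, Bnip3 and Sprr2a3 have a near-identical copy elsewhere, and reads may be split between them. With the counts of the copies added, Dsg1a had a log2 ratio of -2.73 in place of -3.83. Il1a, Fgfr3, Fosl1, Ccnd1 and Cxcl16 overlap exons of a gene on the other strand, and without a known strand setting the reads cannot be told apart. Of the genes called higher, 234 have a near-identical copy and 173 are models without a proper name, against 131 and 115 of those called lower. Processed pseudogenes were called higher in 113 and lower in 50 of 609.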

How the data were processed

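The deposited counts are whole reads per gene, not normalized. FPKM values, also deposited, were used for levels per length, and their ratios equal the CPM ratios used here. The submitters' processing notes name Trim Galore 0.4.4, HISAT2, featureCounts of Subread and edgeR, and the build mm10. The sources used here give neither order, settings, annotation, strand setting nor handling of reads with several matches. All 13102 deposited genes exceed 1 CPM in at least 2 of the 4 libraries, so a gene expressed in 1 library alone was not analysed here. There were 17 symbols turned into dates, which are counted and not named.

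TMM factors (edgeR 4.0.16, R 4.3.3) over the 4 libraries were 0.963, 0.984, 1.01 and 1.04 in the order untreated WT, treated WT, treated Il17rc KO and treated Il17rd KO, and their totals were 19904695, 19890946, 19799746 and 19711866 counts. Log2 ratios have a prior count of 2, so a gene of few counts can pass the 2-fold rule with a log2 ratio just under 1. Intervals are exact conditional binomial (Clopper-Pearson, scipy 1.17.1). Scaling, filters, prior and fold threshold were varied, with DESeq2 1.42.0 size factors as an alternative scaling.

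The 66 gene lists were chosen with earlier results of these data known. Named are the 15 genes each way with intervals furthest from 1, the 12 each way with the largest CPM differences, up to 4 members called each way and the most abundant member of each list, and the 10 genes with the highest FPKM. Il17ra, Il17rd, Traf3ip2, Ccl20, S100a8, S100a9, Lor, Flg, Tchh, Ivl, Klf4, Trp63, Pecam1 and further list members were named after their values were seen, and some genes that the rule selects are left out.

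GENCODE M21 (GRCm38) placed 12853 of the symbols. A near-identical copy is another gene that matches at 95% identity over 50% of either transcript (BLAST+ 2.17.0), excluding overlapping genes, which held for 1937 genes, and 1263 overlap exons on the other strand. Promoter windows are RefSeq's and matched 9439 of 12933 tested symbols.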

Additional observations from a re-analysis of the deposited data

How the results depend on the processing

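With 1 library per group no replicate could be left out, and the intervals, which hold counting error alone, are wide for genes of few counts. No paired analysis was possible because each group has 1 library. The 1160 genes higher and 1384 lower became 1231 and 1325 when scaled by total counts, which moved the median of all genes by 0.03 on the log2 scale. They became 1170 and 1378 with DESeq2 size factors, 1191 and 1428 without a filter, and 800 and 941 from 5 CPM. TMM over the WT libraries alone gave 1160 and 1384. A 4-fold rule left 249 and 434. Of alternatives added after the data were seen, the rule on log2 ratios with the prior count gave 1124 and 1354, and leaving out genes with a near-identical copy gave 926 and 1253.

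Of the 418 named log2 ratios, 37 moved past their counting interval under total-count scaling and none did under the other scalings or a prior count of 0.5. Counts of called members moved by over 1.5 times in 28 of 132 cases from 5 CPM, in 10 without genes that have a near-identical copy, in 4 with total counts and in 1 with DESeq2 size factors. List medians moved past the median bounds of their members' counting intervals in 10 of 66 lists from 5 CPM. They did so in 10 without genes that have a near-identical copy, in 4 with total counts and in 3 without a filter. With the counts of near-identical copies added, 9 of 26 ratios moved and 1 changed sign, that of Rpl28-ps1, at -5.78 alone and 0.48 summed.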

Other observations

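Genes of the circadian clock were mostly lower in the IL-17A library, with 11 of 20 lower and 1 higher and a median log2 ratio of -1.24. Nfil3, a repressor of clock output genes, went from 2081 to 285 counts, 7.45-fold lower (6.58 to 8.47), with 786 and 1051 in the treated Il17rc KO and Il17rd KO libraries. Rora, a nuclear receptor of the clock, went from 929 to 221 counts. Tef, an output factor, went from 1147 to 270 counts. Bhlhe40, a repressor within the clock, was the gene called higher, from 2444 to 5460. The sources used here do not say at what time of day either culture was collected.

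The Skint genes, which encode keratinocyte surface proteins that shape epidermal T cells, were lower in all 5 members tested. Skint4 went from 480 to 58 counts, 8.45-fold lower (6.42 to 11.3), and Skint7 from 263 to 13, 20.7-fold lower (11.9 to 39.3). In the treated KO libraries Skint4 had 225 and 280 counts. Lysosome and autophagy genes were lower in 12 and higher in none of 55. Ctsf, a lysosomal protease, went from 872 to 153 counts, and Map1lc3a, the gene of an LC3 protein of autophagosomes, from 2270 to 727, 3.19-fold lower (2.93 to 3.47). Ctsl, another lysosomal protease, had 19650 and 26833.

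Amino acid transporters were divided, with 7 of 27 higher and 6 lower, against 8.97% and 10.7% of all genes. Slc6a14, a broad transporter of neutral and basic amino acids, went from 104 to 512 counts, 4.82-fold higher (3.90 to 6.01), while Slc7a1, the main arginine carrier, went from 13351 to 6347. Potassium and calcium channel genes were lower in 9 and higher in 4 of 29. Stim1, the sensor that refills calcium stores, was 2.76-fold lower (2.63 to 2.90). Of 43 NRF2 targets, 6 were higher and 6 lower. Gsta4, which detoxifies lipid aldehydes, went from 15 to 241 counts, 15.7-fold higher (9.35 to 28.6), and Hmox1, the inducible heme oxygenase, from 6353 to 2824. Heat shock and unfolded protein response genes had 1 of 47 higher and 4 lower, both shares under those over all genes, with Hsp90aa1 at 2.85-fold higher (2.79 to 2.92) and Hspa1b at 3.30-fold lower (3.13 to 3.47).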
